A study of Mus musculus with 4 samples.

Results

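The comparison set young ventilated against young nonventilated lungs, 1 scRNA-Seq library each, at the end of 3 hours of mechanical ventilation. Cell barcodes with 200 to 7500 detected genes and at most 10% of unique molecular identifiers (UMIs, single captured RNA molecules) from mitochondrial genes were placed in 4 compartments by 1 defining gene each. An immune barcode held at least 1 UMI of *Ptprc*, an endothelial barcode at least 1 of *Cdh5* and a mesenchymal barcode at least 1 of *Col1a2*, in each case with none of the other two genes. An epithelial barcode held at least 1 UMI of *Epcam* and none of these 3 genes. This gave 5077 barcodes, 2460 nonventilated and 2617 ventilated, of the 8127 deposited for the young lungs and the 15428 of the whole series.

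All mice were male wild-type C57BL/6 animals kept on food restricted to 70% of free intake, and the young ones were 2 to 3 months old. Each library was made from a pool of 3 mice. The young ventilated mice received ketamine at 100 mg/kg with medetomidine and buprenorphine, and were ventilated for 3 hours with a tidal volume of 20 mL/kg (at most 0.6 mL), 150 breaths per minute, no positive end-expiratory pressure (0 cmH2O) and pure oxygen (a fraction of 1.0). The nonventilated mice were naive, so ventilation, anesthesia, the breathing of pure oxygen and the surgical lines cannot be told apart here. The left lobe was digested for 30 minutes with Liberase and DNase and cryopreserved before the cells were loaded. The aged mice, 22 months old, were handled by the same protocol, in which the 0.6 mL limit gives a heavier mouse less volume per kg, and give 4640 barcodes in the same compartments and are cited only beside single results. With 1 pooled library on each side there is no replicate spread and no test. Every interval below covers the counting of UMIs or of barcodes only, treats these as independent and leaves out the spread between mice.

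Mechanical ventilation with large breaths stretches the alveolar wall, whose capillary bed is lined by general capillary cells and by aerocytes, the thin capillary cells at the gas exchange surface. Alveolar fibroblasts lie in the wall, type I epithelial cells form the air-facing surface, and type II cells make surfactant. Stretched or injured lungs are known for release of cytokines and chemokines that draw neutrophils and monocytes, for the NF-kB program behind many of these genes, and for vascular leak. The interferon-stimulated genes are a separate antiviral program switched on by transcription factors that bind the interferon-stimulated response element. NRF2 is the transcription factor of the antioxidant response and binds the antioxidant response element.

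Sequences upstream of 4 genes whose UMI counts were higher after ventilation are shown because the lists they belong to carry the results in endothelial, immune and epithelial cells. They are the 250 bases before a transcript start in RefSeq on GRCm38.p6, written 5′ to 3′ on the gene's strand. Capitals in the first 3 mark GAAANNGAAA, the core of the interferon-stimulated response element, and in the last TGACNNNGC, the core of the antioxidant response element, on either strand (the reverse complement where the motif lies on the other strand).
*Rsad2* (viperin, an antiviral enzyme, chr12:26456453-26456702, minus strand): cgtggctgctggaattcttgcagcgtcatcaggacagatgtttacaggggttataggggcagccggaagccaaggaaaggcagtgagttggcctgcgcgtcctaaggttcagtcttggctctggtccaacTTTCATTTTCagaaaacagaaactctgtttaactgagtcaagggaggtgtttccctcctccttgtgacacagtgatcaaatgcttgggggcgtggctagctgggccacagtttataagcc
*Ifit3* (which binds viral RNA complexes, chr19:34583279-34583528, plus strand): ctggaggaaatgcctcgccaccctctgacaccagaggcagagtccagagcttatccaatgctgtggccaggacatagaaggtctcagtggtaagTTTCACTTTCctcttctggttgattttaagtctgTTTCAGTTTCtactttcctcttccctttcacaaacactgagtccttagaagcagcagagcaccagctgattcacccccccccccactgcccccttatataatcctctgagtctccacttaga
*Isg15* (a ubiquitin-like protein, chr4:156200819-156201068, minus strand): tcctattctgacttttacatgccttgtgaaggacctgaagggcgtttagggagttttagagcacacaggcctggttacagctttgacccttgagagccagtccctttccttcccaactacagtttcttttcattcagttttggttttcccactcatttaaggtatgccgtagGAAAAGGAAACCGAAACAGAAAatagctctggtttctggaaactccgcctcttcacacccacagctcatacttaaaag
*Txnrd1* (thioredoxin reductase, chr10:82858956-82859205, plus strand): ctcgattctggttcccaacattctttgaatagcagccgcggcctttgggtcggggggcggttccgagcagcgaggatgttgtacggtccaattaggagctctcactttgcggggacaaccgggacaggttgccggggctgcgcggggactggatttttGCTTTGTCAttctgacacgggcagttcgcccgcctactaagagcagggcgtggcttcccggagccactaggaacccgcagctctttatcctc
The start used for *Txnrd1* is internal, since GENCODE places the gene at chr10:82833951-82897712, and it was shown because its window holds the motif. In windows of 300 bases that add the first 50 bases of the transcript, GAAANNGAAA was present for 10 of the 16 interferon-stimulated genes with a RefSeq promoter (62.5%) and for 3.99% of all 27025 genes. TGACNNNGC was present for 8 of 17 NRF2 target genes (47.1%) and for 14.0% of all genes. The capitals in *Isg15* hold matches that overlap each other. A match is a string of letters and does not show binding.

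The compartments were set beside 8 fixed markers each, which include the gene that made the compartment and is present by design. CPM is the UMIs of a gene per 1000000 UMIs of the compartment. All 8 markers, also those that did not make the compartment, were above 50 CPM in their own compartment in both libraries. Their levels in the other compartments are not reported here. Immune barcodes numbered 784 in the nonventilated and 968 in the ventilated library, or 31.9% and 37.0% of the barcodes in compartments, a difference of 5.12 percentage points (95% interval 2.51 to 7.73). Endothelial barcodes numbered 972 and 959 (a difference of −2.87 points, −5.54 to −0.20) and mesenchymal barcodes 649 and 597 (−3.57 points, −5.94 to −1.20). Epithelial barcodes numbered 55 and 93 (1.32 points, 0.40 to 2.24), so their values rest on few cells. Within compartments, barcodes were put in the class with the most of 8 markers detected, at least 2 and without ties, and are called by that class with the ending "-like". Neutrophil-like barcodes made up 14.7% of nonventilated immune barcodes (115 barcodes, exact binomial interval 12.3% to 17.3%) and 20.9% of ventilated ones (202, 18.3% to 23.6%). Classical monocyte-like barcodes made up 9.82% (77, 7.83% to 12.1%) and 15.5% (150, 13.3% to 17.9%), and B or plasma-like barcodes 10.2% (80, 8.17% to 12.5%) and 3.20% (31, 2.19% to 4.52%). General capillary-like barcodes numbered 622 and 603, aerocyte-like 195 and 191, alveolar fibroblast-like 424 and 430, alveolar type II-like 18 and 23 and alveolar type I-like 25 and 41. *Col1a2*, which defines the mesenchymal compartment, stood at 1075 CPM in nonventilated and 499.7 CPM in ventilated mesenchymal barcodes, and *Epcam* in epithelial barcodes at 175 and 375 CPM.

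The libraries were of like depth, with 41222284 and 44404172 UMIs in 3630 and 4497 barcodes and medians of 9974.5 and 8994 UMIs in the barcodes kept. In the ventilated library 25.4% of barcodes were over the mitochondrial limit, against 17.9%, and 13.1% of the barcodes kept held none of the 4 defining genes, against 7.85%. The median UMIs of those without a defining gene were 1523 without and 1609 with ventilation, and their summed CPM of 8 erythroid markers was 12 in the nonventilated and 3970 in the ventilated library. In the same barcodes the mesenchymal markers summed to 1060 and 2458 CPM and the alveolar type I markers to 9212 and 2706 CPM, so cells of these kinds are outside the compartments, and their part in the results was not tested. Barcodes with at least 2 of the first 3 defining genes, which can be doublets, made up 8.53% and 8.21% and were left out. The young libraries shared 7 barcode sequences, 3 of them among those kept.

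A gene was called when its mean over the 2 libraries was at least 50 CPM, at least 20 UMIs were counted in 1 of them, the CPM ratio was at least 2 in either direction and the exact 95% interval of that ratio left out 1. Pairs of values are given in the order nonventilated, ventilated, and a fold is followed by its 95% interval. In immune cells 5.01% of 3772 genes were called higher and 4.64% lower, in endothelial cells 9.29% and 9.18% of 3747, in mesenchymal cells 9.49% and 8.71% of 3604, and in epithelial cells 8.89% and 6.60% of 3531. These shares are the background for each count of called list members that follows. The lists were chosen with earlier results of these data known, so a count above its background is a description and not independent support. The median absolute log2 ratio over all genes was 0.32 in immune, 0.40 in endothelial, 0.46 in mesenchymal and 0.41 in epithelial cells, and between 0.29 and 0.31 in the aged lungs. With a single library a side, a large library effect and an effect of ventilation cannot be told apart.

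**Figure D1:**
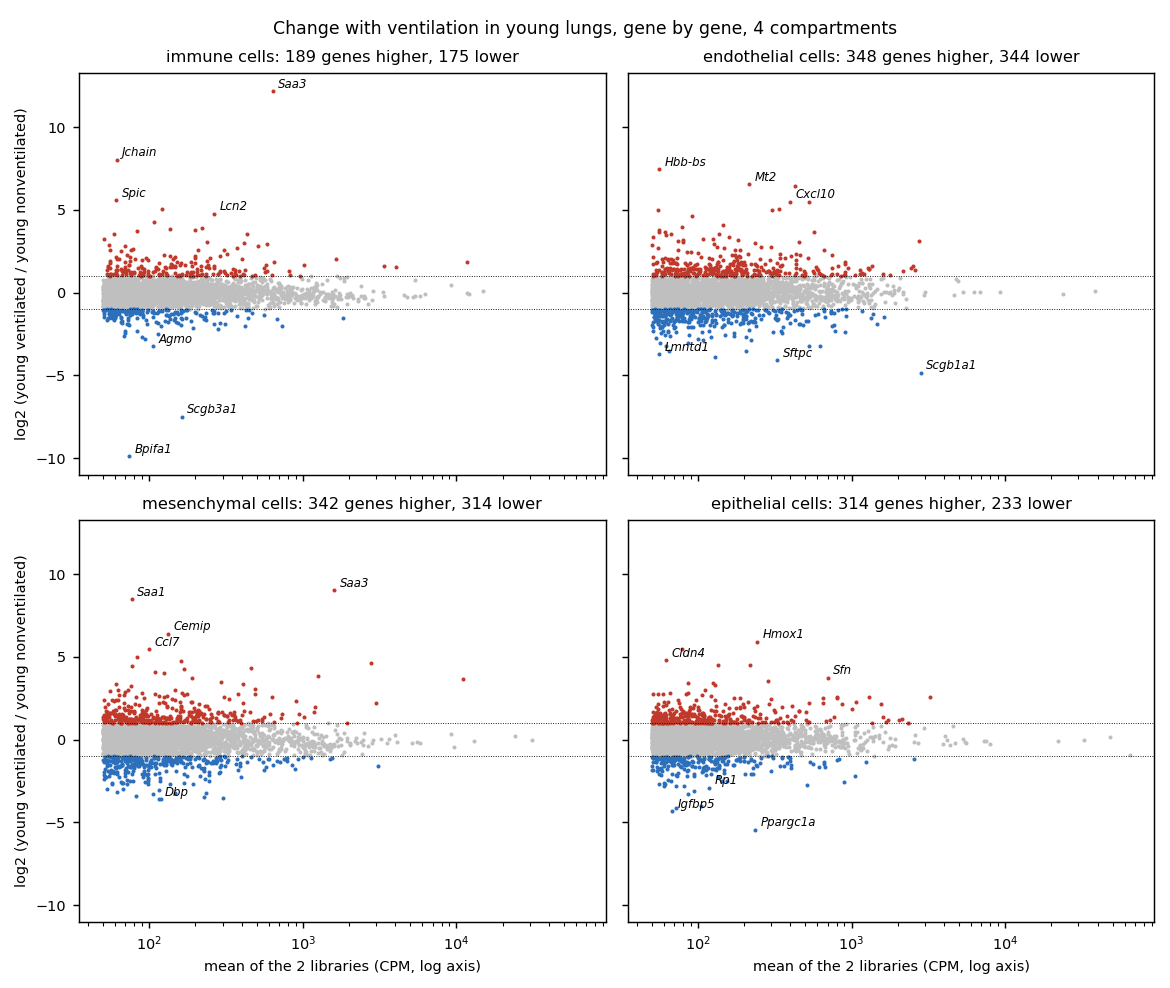
Mean CPM of each gene (horizontal, log scale) against its log2 ratio of CPM in the young ventilated over the young nonventilated library, in 1 panel for each of the 4 compartments. Colored points are the genes called higher or lower, from 175 lower genes in immune cells to 348 higher genes in endothelial cells.

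**Figure D2:**
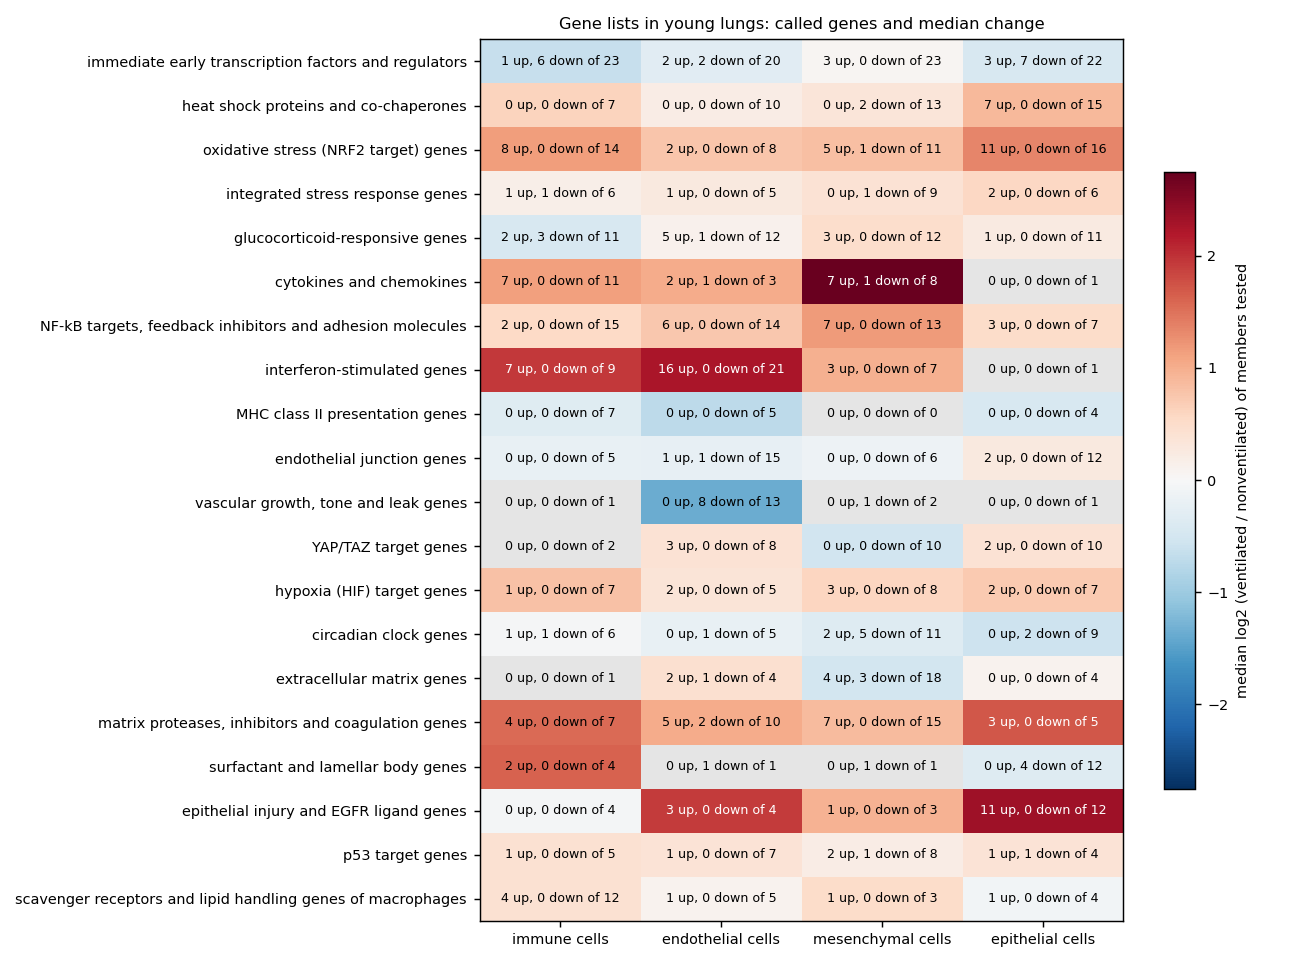
Median log2 ratio of the members of 20 gene lists (rows) in the 4 compartments of the young lungs (columns), with the numbers called higher and lower written in each cell and grey where fewer than 3 members passed the filter on low values. The cytokines and chemokines in mesenchymal cells (7 higher of 8), the interferon-stimulated genes in endothelial cells (16 higher of 21) and the epithelial injury genes in epithelial cells (11 higher of 12) stand out.

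In endothelial cells, interferon-stimulated genes made a large block of increases. Of 22 genes on the list, 21 were in the files and passed the filter, 16 were called higher and 0 lower, against 9.29% of all endothelial genes called higher. Their median log2 ratio was 2.25, beside −0.04 for all genes, and their summed level went from 3500.0 to 10201 CPM. *Rsad2* stood at 9.83 and 853 CPM (92 and 7692 UMIs), a ratio of 86.8-fold, 70.7 to 108. Its UMIs were spread over 4.94% and 67.5% of the endothelial barcodes, and no barcode held more than 1.64% of the ventilated UMIs. *Ifit3* stood at 19.5 and 658 CPM (33.7-fold, 29.0 to 39.2) and *Ifit2*, of the same family, at 9.51 and 149 CPM (15.7-fold, 12.7 to 19.7). *Isg15* stood at 81.7 and 1052 CPM (12.9-fold, 12.0 to 13.9) and *Ifit1* at 75.9 and 524 CPM (6.90-fold, 6.37 to 7.47). The *Rsad2* share was 4.72% and 26.3% in immune, 1.82% and 3.23% in epithelial and 0.770% and 8.38% in mesenchymal barcodes. With each barcode thinned to 2000 UMIs it was 1.69% (0.946 to 2.76%) and 52.3% (48.8 to 55.7%) in endothelial, 0% and 1.14% in epithelial and 0.162% and 1.71% in mesenchymal barcodes. In immune barcodes the thinned share was 1.17% (0.537 to 2.21%) and 17.1% (14.7 to 19.7%). The ventilated endothelial share of *Rsad2* was thus above the immune, epithelial and mesenchymal ones, and the immune share was also higher after ventilation. The nonventilated endothelial share lay within the interval of the epithelial share (up to 6.72%). Regulators of the program were also called higher: *Irf7*, the factor that amplifies the response, from 23.9 to 227 CPM, and *Usp18*, the protease that removes ISG15 and damps interferon receptor signaling, from 29.0 to 224 CPM. Among the guanylate-binding and related GTPases, *Gbp2* went from 141 to 724 CPM, *Gbp3* from 60.4 to 287 CPM, *Gbp7* from 246 to 677 CPM, *Ifi47* from 104 to 279.8 CPM and *Igtp* from 91.2 to 217 CPM. The 5 members that were not called were *Irf1* (782 and 673 CPM), *Iigp1* (931 and 1395 CPM), *Stat2* (126 and 221 CPM), *Bst2* (288 and 516 CPM) and *Gbp4* (159 and 289 CPM). *Cxcl10*, the interferon-induced chemokine for T cells, rose alongside, from 17.5 to 783 CPM (44.7-fold, 38.3 to 52.5), with UMIs in 5.56% and 53.9% of barcodes.

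**Figure D3:**
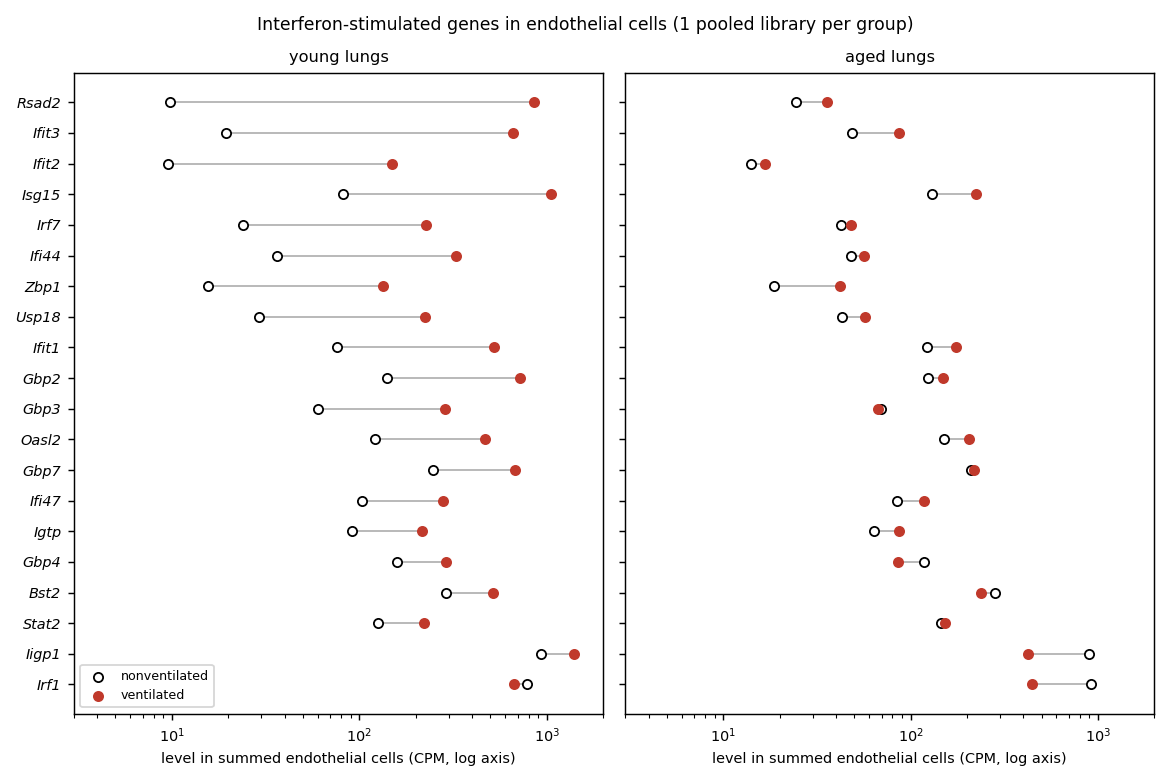
CPM (horizontal, log scale) of 20 of the 21 interferon-stimulated genes in endothelial cells, in young and aged lungs, with open points for the nonventilated and red points for the ventilated library. *Rsad2* stood at 9.83 and 853 CPM in young lungs and at 24.5 and 35.7 CPM in aged lungs.

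Within the endothelial classes, interferon-stimulated genes were counted by a ratio of at least 2, which is not a call. The share of all genes at that ratio in each class is not given, so the counts do not rank the classes. In general capillary-like barcodes *Rsad2* went from 11.9 to 872 CPM and in aerocyte-like barcodes from 1.13 to 1105 CPM, and *Isg15* in the aerocyte-like barcodes from 46.4 to 1981 CPM. Of 21 interferon-stimulated genes, 20 had a ratio of at least 2 in aerocyte-like barcodes (median log2 ratio 2.79) and 14 in general capillary-like barcodes (2.15). In venous-like barcodes, only 38 and 25 in number, 17 did (2.07). In arterial-like barcodes, only 23 and 15 in number, 13 did (1.30) and 1 had a ratio of at most 1/2. In lymphatic-like endothelial barcodes, 29 in the ventilated library, 5 had a ratio of at least 2 and 4 a ratio of at most 1/2 (median 0.28). In the other compartments fewer members passed: 7 of 9 were called higher in immune cells, 3 of 7 in mesenchymal cells and 0 of 1 in epithelial cells. In immune cells *Isg15* stood at 27.1 and 412 CPM and *Rsad2* at 11.8 and 156 CPM, and in mesenchymal cells *Isg15* stood at 23.2 and 140.2 CPM. Aged endothelium, for which 16 members passed, had 0 called higher and 2 lower, with a summed level of 3687 CPM without and 3049 CPM with ventilation. The difference between the ages was not tested.

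Vascular genes of the endothelium were lower after ventilation. Of 13 vascular growth, tone and leak genes that passed, 8 were called lower and 0 higher, against 9.18% of all endothelial genes called lower, with a median log2 ratio of −1.37. *Kdr*, the main receptor for VEGF, went from 573 to 221 CPM (2.59-fold lower, 2.46 to 2.73). *Tek* (TIE2), the angiopoietin receptor that keeps vessels tight, went from 654 to 209 CPM (3.13-fold lower, 2.97 to 3.30), and its partner *Tie1* from 284 to 133 CPM. *Ptprb*, a phosphatase that acts on TIE2 and on the VE-cadherin complex, went from 2331 to 621 CPM (3.75-fold lower, 3.64 to 3.87). The adrenomedullin receptor *Calcrl* went from 2380.4 to 874 CPM and its accessory protein *Ramp2* from 1227 to 319 CPM (3.85-fold lower, 3.69 to 4.01). The RNA of the receptor and that of its accessory protein were therefore both at lower levels. *Aplnr* went from 86.6 to 23.9 CPM and the endothelin B receptor *Ednrb* from 221 to 72.1 CPM, and these belong to the markers of the general capillary-like and aerocyte-like classes. Several members were not called: the sphingosine-1-phosphate receptor *S1pr1* stood at 628 and 1217 CPM, the second VEGF receptor *Flt1* at 1400.5 and 978 CPM and endothelin-1, *Edn1*, at 120.0 and 117 CPM. In aerocyte-like barcodes *Kdr* stood at 1635 and 334 CPM and in general capillary-like barcodes at 293 and 199 CPM. The list's summed level was 10388 CPM without and 5276 CPM with ventilation. Without *Cdh5*, the 7 other general endothelial markers, of which *Kdr*, *Tie1* and *Ramp2* are also on this list, summed to 6259 and 4034 CPM in endothelial cells. The part of this in the vascular result was not tested. In aged endothelium 3 of 12 members were called lower and 1 higher.

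*Klf2* and *Klf4*, the transcription factors that laminar blood flow maintains in endothelium, were among the genes called lower. *Klf2* went from 1517 to 287 CPM (5.29-fold lower, 5.07 to 5.52) and *Klf4* from 1208 to 293 CPM (4.12-fold lower, 3.95 to 4.30). Thrombomodulin (*Thbd*), an anticoagulant receptor known as a KLF2 target, went from 804 to 245 CPM (3.28-fold lower, 3.13 to 3.44). In lymphatic-like barcodes *Klf2* stood at 1374 and 1469.6 CPM. In aged endothelium *Klf2* stood at 1119 and 371 CPM and *Thbd* at 827 and 539 CPM. *Plat*, the tissue plasminogen activator, was called higher, from 58.5 to 213 CPM. *Timp3*, an inhibitor of metalloproteinases, went from 1268 to 3090.0 CPM and the protease *Adamts9* from 709 to 1905 CPM. In all, 5 of the 10 protease and coagulation genes that passed were called higher and 2 (*Thbd* and *Timp2*) lower.

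Of 15 junction genes of the endothelium that passed, 1 was called higher and 1 lower, with a median log2 ratio of −0.22. Of all endothelial genes 9.29% were called higher and 9.18% lower, so these counts do not set the junction list apart. *Cldn5*, the main tight-junction claudin, stood at 1604 and 1646 CPM, *Esam* at 449 and 463 CPM and *Pecam1* at 1233 and 985 CPM. Plakoglobin, *Jup*, the member called lower, went from 340.1 to 105 CPM (3.23-fold lower, 3.01 to 3.48). The rest of the junction list stayed inside the limits for a call. Adhesion molecules that slow leukocytes were higher: *Vcam1* went from 87.5 to 218 CPM and *Selp* (P-selectin) from 109 to 271 CPM, while *Icam1* (447 and 807 CPM) was not called. In venous-like barcodes *Selp* stood at 1509.9 and 5184 CPM and *Vcam1* at 1478 and 3286 CPM. Altogether 6 of 14 NF-kB targets and adhesion molecules were called higher in endothelium and 0 lower.

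The largest single falls and rises of the endothelium included other genes. *Npr3*, the clearance receptor for natriuretic peptides, went from 242 to 16.1 CPM (15.0-fold lower, 12.7 to 17.9) and *Glp1r*, the GLP-1 receptor, from 381 to 32.8 CPM (11.6-fold lower, 10.3 to 13.1). *Cxcl12*, the chemokine that holds CXCR4-bearing cells in place, went from 362 to 107 CPM. The metallothioneins *Mt1* and *Mt2*, which bind zinc and copper, went from 23.3 to 1029.7 CPM and from 4.49 to 426 CPM. The hemoglobin gene *Hbb-bs* went from 0.534 to 112 CPM, with 61.3% of its ventilated UMIs in 1 barcode. *Scgb1a1*, a club cell secretory protein, and *Sftpc*, a type II cell surfactant protein, read lower in endothelial barcodes, at 5477 and 192 CPM and 621 and 36.7 CPM. In the nonventilated library 1 barcode held 98.3% of the *Scgb1a1* UMIs and 1 barcode 94.6% of the *Sftpc* UMIs , and without the top barcode of each library their log2 ratios were 0.96 and 0.06. These values therefore describe single barcodes.

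In mesenchymal cells, acute-phase, cytokine and metallothionein genes were among the genes called higher. Serum amyloid A3 (*Saa3*, chr7:46711998-46715700, minus strand, GRCm38) went from 6.03 to 3206 CPM (56 and 29395 UMIs), a ratio of 532-fold, 409 to 704. Its UMIs were found in 1.39% and 40.9% of mesenchymal barcodes, beside 10.4% of ventilated endothelial barcodes. With each barcode thinned to 2000 UMIs the mesenchymal shares were 0.324% and 33.4% (29.6 to 37.4%), and the ventilated endothelial share was 3.33%. The log2 ratio without the top barcode of each library was 9.50. *Saa1*, a neighboring gene of the same family (chr7:46740497-46742980), went from 0.323 to 154 CPM (3 and 1413 UMIs), a ratio of 477-fold, 163 to 2317. In alveolar fibroblast-like barcodes *Saa3* stood at 5.67 and 3851 CPM, and in ventilated pericyte-like barcodes at 7.07 CPM. *Saa3* was thus uneven among the mesenchymal classes. *Mt2* went from 215 to 5341 CPM and *Mt1* from 1569.6 to 20372 CPM. *Cemip*, an enzyme that breaks down hyaluronan, went from 3.01 to 263 CPM (87.1-fold, 60.1 to 131), and the serpin *Serpina3g* from 4.95 to 161 CPM.

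Of the 8 cytokine and chemokine genes that passed in mesenchymal cells, 7 were called higher and 1 lower, against 9.49% of all mesenchymal genes called higher. *Lif*, of the IL-6 family, went from 6.67 to 148 CPM (22.2-fold, 17.2 to 29.1). *Ccl2* and *Ccl7*, ligands of CCR2 on classical monocytes, went from 11.6 to 311 CPM (26.7-fold, 22.1 to 32.7) and from 4.31 to 196 CPM (45.4-fold, 33.2 to 63.8). The neutrophil chemoattractant *Cxcl1* went from 95.8 to 657 CPM (6.86-fold, 6.39 to 7.37). *Il6* itself went from 100 to 311 CPM (3.11-fold, 2.89 to 3.35), with UMIs in 20.2% and 46.6% of barcodes. *Cxcl10* went from 31.9 to 201 CPM and *Csf1*, the macrophage growth factor, from 48.8 to 133 CPM. *Cxcl12* was the member called lower, from 80.4 to 36.8 CPM. Adventitial fibroblast-like barcodes, 38 and 32 in number, held *Il6* at 299 and 1015 CPM and *Cxcl1* at 352 and 2034 CPM. Alveolar fibroblast-like barcodes held *Cxcl1* at 73.5 and 545 CPM. In aged mesenchyme 1 of 7 was called higher and 1 lower. There *Il6* stood at 262 and 219.7 CPM, *Cxcl1* at 356 and 254 CPM and *Ccl2* at 75.6 and 120.5 CPM, so that for these 3 genes the aged nonventilated library lay above the young nonventilated one.

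NF-kB targets and feedback inhibitors moved in the same compartment. Of 13 that passed, 7 were called higher and 0 lower, with a median log2 ratio of 1.18, and in aged mesenchyme 0 of 13 were called. The subunit genes *Nfkb1* (482 and 1901 CPM), *Nfkb2* (37.2 and 97.0 CPM) and *Rel* (42.5 and 97.8 CPM) were called higher, as was *Bcl3* (32.1 and 139 CPM). So were the inhibitors: *Nfkbia*, which encodes the cytoplasmic inhibitor of NF-kB, from 312 to 707 CPM, *Tnfaip3* (A20) from 35.5 to 116 CPM, and *Tnip1*, the partner of A20, from 44.5 to 294 CPM (6.60-fold, 5.95 to 7.34). Subunit genes and inhibitor genes were therefore higher together.

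Genes that build and cut the matrix divided into groups. Tenascin C (*Tnc*), a matrix protein of injured tissue, went from 43.3 to 875 CPM (20.2-fold, 18.3 to 22.4), and in alveolar fibroblast-like barcodes from 39.4 to 1071 CPM. Fibronectin (*Fn1*) went from 604 to 1236 CPM (log2 ratio 0.92 with the mesenchymal classes at a fixed mix, which is under the limit) and the cross-linking enzyme *Lox* from 115 to 339 CPM. Elastin (*Eln*) went from 339.7 to 129 CPM, *Col3a1* from 829 to 365 CPM and fibulin-5 (*Fbln5*) from 100.4 to 47.7 CPM, and these 3 were called lower. *Col1a1* stood at 552 and 299 CPM and was not called. The basement membrane collagen *Col4a1* went from 310.3 to 675 CPM (2.18-fold, 2.08 to 2.28) and was called higher, and its partner *Col4a2* stood at 186 and 352 CPM and was not called. Of 18 matrix genes, 4 were called higher and 3 lower. Of 15 protease, inhibitor and coagulation genes, 7 were called higher and 0 lower. They included *Timp1* (70.8 and 745 CPM), *Adamts4* (32.6 and 262 CPM), *Mmp19* (35.1 and 214 CPM) and thrombospondin-1, *Thbs1* (1059 and 4901 CPM). The summed level of 8 alveolar fibroblast markers in mesenchymal cells was 9632 CPM without and 3705 CPM with ventilation. Its part in these results was not tested.

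Clock output genes were low in ventilated mesenchyme. Of 11 clock genes that passed, 5 were called lower and 2 higher, against 8.71% of all mesenchymal genes called lower. *Dbp* went from 215 to 17.6 CPM, *Hlf* from 151 to 36.4 CPM and *Tef* from 110.0 to 37.1 CPM, which together are the PAR bZIP factors driven by the clock. *Nr1d1* (REV-ERB alpha) went from 149 to 53.8 CPM and *Rora* from 797 to 309 CPM. The repressors *Nfil3* and *Bhlhe40* were called higher, from 24.5 to 113 CPM and from 96.0 to 209 CPM. The time of day at which each mouse was killed is not given in the sources used here. Other large falls were *G0s2*, an inhibitor of lipolysis, from 559 to 48.2 CPM (11.6-fold lower, 10.5 to 12.8), *Gas1* from 149 to 13.9 CPM and *Pde7b*, a cAMP phosphodiesterase, from 417 to 38.1 CPM. The heat shock gene *Hspa1a* went from 315 to 109.6 CPM and its near-identical copy *Hspa1b* from 165 to 32.4 CPM, and reads of the pair may be divided between them unevenly.

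Immune cells had the smallest share of called genes. *Saa3* was also the largest rise there, from 0.186 to 1274 CPM (2 and 16284 UMIs), a ratio of 6837-fold, 1892 to 56463. It was seen in 0.255% and 23.1% of immune barcodes. In the ventilated library UMIs of *Saa3* were also in 10.4% of endothelial and 11.8% of epithelial barcodes, and the part of free RNA in these shares was not tested. With each barcode thinned to 2000 UMIs the ventilated shares were 15.8% in immune (13.5 to 18.3%), 3.33% in endothelial (2.23 to 4.78%) and 0% of 88 in epithelial barcodes (up to 4.11%), and the nonventilated immune share was 0% of 769 (up to 0.479%). The immune share was thus above that of the endothelium after thinning. Classical monocyte-like barcodes held it at 1.57 and 5385 CPM. *Lcn2* (lipocalin-2), which withholds iron from bacteria, went from 18.6 to 513 CPM (27.5-fold, 23.9 to 31.8), and in neutrophil-like barcodes from 374 to 5295 CPM. *Spic*, a transcription factor of iron-handling macrophages, went from 2.42 to 119.6 CPM (49.4-fold, 33.6 to 75.8), and in nonclassical monocyte-like barcodes from 2.97 to 565 CPM. The share of neutrophil-like barcodes was higher after ventilation, and the summed level of 8 neutrophil markers in immune cells was 4168 and 12119 CPM. With the classes weighted to a fixed mix, the log2 ratio of *Lcn2* was 4.06 in place of 4.77, that of *Saa3* 11.55 in place of 12.15 and that of *Spic* 5.82 in place of 5.57.

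Of 11 cytokine and chemokine genes that passed in immune cells, 7 were called higher and 0 lower, against 5.01% of all immune genes called higher. The neutrophil chemoattractant *Cxcl2* went from 481 to 1548 CPM (3.22-fold, 3.12 to 3.32), and in neutrophil-like barcodes from 2216 to 7439 CPM. The macrophage inflammatory proteins *Ccl3* and *Ccl4* went from 89.6 to 309 CPM and from 158 to 644 CPM, and nonclassical monocyte-like barcodes held *Ccl4* at 10.1 and 732 CPM. *Tnf* went from 178 to 386 CPM (2.17-fold, 2.06 to 2.29). *Ccl2* went from 127 to 258 CPM (2.02-fold, 1.90 to 2.16) and *Ccl7* from 51.1 to 122 CPM. Without the top barcode of each library the log2 ratio of *Ccl2* was 0.99, just under the limit. *Il1b* stood at 1113 and 2204 CPM (1.98-fold, 1.94 to 2.02) and was not called, since its ratio was just under 2. In neutrophil-like barcodes *Il1b* was at 8795 and 8309 CPM, in interstitial macrophage-like barcodes at 1003 and 5390.1 CPM and in alveolar macrophage-like barcodes at 183 and 379.6 CPM. After thinning every barcode to 2000 UMIs, *Il1b* was found in 45.9% (42.3% to 49.5%) and 66.0% (62.8% to 69.1%) of immune barcodes, and in 61.9% and 78.9% of them before thinning. In endothelial barcodes, which should lack it, the thinned shares were 1.57% and 2.26%, and the median UMIs were 11879.5 and 9447.5 in immune and 7741.5 and 7300 in endothelial barcodes. Thinning left out 15 and 56 immune and 82 and 119 endothelial barcodes with fewer UMIs. In aged immune cells 7 of 12 cytokine genes were called higher, *Il1b* among them (915 and 2519.7 CPM).

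NRF2 targets were higher in immune cells too. Of 14 that passed, 8 were called higher and 0 lower, with a median log2 ratio of 1.15. Heme oxygenase 1 (*Hmox1*), which degrades heme, went from 69.0 to 791 CPM (11.5-fold, 10.6 to 12.4), and in alveolar macrophage-like barcodes from 86.4 to 935 CPM. The cystine transporter *Slc7a11* went from 279 to 871 CPM, and *Gclc* and *Gclm*, the subunits of the enzyme that begins glutathione synthesis, went from 55.6 to 228 CPM and from 35.0 to 104 CPM. Ferritin heavy chain (*Fth1*), the iron store, went from 5089 to 18224 CPM (3.58-fold, 3.55 to 3.61). In nonclassical monocyte-like barcodes 10 of 14 members had a ratio of at least 2 (median log2 ratio 2.09) and in B or plasma-like barcodes 1 (0.44). Such ratios are not calls, and the share of all genes at that ratio in each class is not given. Scavenger receptors were partly higher, with 4 of 12 called, including *Msr1* (51.4 and 182 CPM) and *Marco* (67.5 and 136 CPM). The collagenases *Mmp8*, a granule enzyme of neutrophils, and *Mmp14* went from 21.4 to 131 CPM and from 9.32 to 108 CPM. *Mmp8* is 1 of the neutrophil markers used for the classes.

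Immediate early genes were lower in immune cells. Of 23 that passed, 6 were called lower and 1 higher, against 4.64% of all immune genes called lower. *Egr1* went from 487 to 132 CPM (3.70-fold lower, 3.50 to 3.91), *Fosb* from 415 to 110.5 CPM (3.76-fold lower, 3.54 to 3.99), *Fos* from 659 to 279.7 CPM and *Egr3* from 80.2 to 25.8 CPM. *Klf2* and *Klf4* were lower here as well, at 455 and 224 CPM and 363 and 168 CPM. *Ier3* was the one called higher, from 71.9 to 209.5 CPM. Mesenchymal cells of the same libraries had 0 of 23 lower and 3 higher, with *Fos* at 2990.5 and 2281 CPM and *Egr1* at 2120.5 and 2290.2 CPM. Other falls of immune cells were *Ypel3* (118 and 19.1 CPM), *Agmo*, which cleaves ether lipids (192 and 20.1 CPM), and *Patj*, a polarity protein (165 and 23.8 CPM). MHC class II presentation genes, with 7 that passed, had none called by this rule. *Cd74*, the invariant chain, stood at 5221 and 4275 CPM and *H2-Aa* at 1896 and 1501 CPM. All 7 ratios were below 1, at a lowest log2 ratio of −0.78.

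Some large ratios of immune cells belong to single barcodes. *Jchain* and *Igha*, genes of antibody-secreting cells, read 0.373 and 123 CPM and 6.89 and 237 CPM, and all but a few of their ventilated UMIs were in 1 barcode. Without the top barcodes their log2 ratios were −0.25 and −1.84. *Scgb3a1* and *Bpifa1*, secretory genes of the airway, read 323 and 1.72 CPM and 148 and 0.0782 CPM, again with nearly all nonventilated UMIs in 1 barcode each. In ventilated immune barcodes 1 barcode held 47.5% of the *Sftpc* UMIs. None of these genes keeps a call without its top barcode except *Sftpc*, whose log2 ratio then was 2.95.

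In epithelial cells, genes of injured epithelium were the clearest group. Of 12 that passed, 11 were called higher and 0 lower, against 8.89% of all epithelial genes called higher, with a median log2 ratio of 2.32. The keratins *Krt8* (564 and 2530.5 CPM), *Krt18* (366 and 1773 CPM) and *Krt19* (311 and 1417 CPM) were called higher, and *Krt7* (614 and 1141 CPM) was the member that was not. *Sfn* (14-3-3 sigma), a stress regulator of epithelia, went from 96.5 to 1308 CPM (13.6-fold, 11.2 to 16.6) and *Cldn4*, a claudin induced by lung injury, from 3.51 to 121 CPM (4 and 203 UMIs). Without the top barcode of each library its log2 ratio was 5.09, at a mean below the 50 CPM limit. *Plaur*, the urokinase receptor, went from 17.6 to 421 CPM (24.0-fold, 15.4 to 39.5). The EGFR ligands *Hbegf* and *Areg* went from 197 to 1111 CPM (5.65-fold, 4.92 to 6.52) and from 226 to 1073 CPM (4.74-fold, 4.16 to 5.42). The cell cycle inhibitor *Cdkn1a* went from 41.2 to 217 CPM and galectin-3, *Lgals3*, from 233 to 1385 CPM. The keratins and EGFR ligands named here thus moved in the same direction. *Krt7*, *Krt8* and *Krt18* are also among the general epithelial markers, and the defining gene *Epcam* stood at 175 and 375 CPM in this compartment. Unclassed barcodes held 4.87% and 13.3% of its UMIs. What these differences contribute to the injury list was not tested. In type II-like barcodes, 18 and 23 in number, *Krt8* stood at 168 and 1382 CPM and *Areg* at 59.7 and 841 CPM. In type I-like barcodes, 25 and 41 in number, *Hbegf* stood at 322 and 2379.6 CPM. The type I-like barcodes also held *Sftpc*, a type II gene, at 41.9 and 4327 CPM. In aged epithelium 9 of 11 members were called higher, with *Krt8* at 946 and 2877 CPM and *Sfn* at 201 and 1099 CPM. Tissue factor (*F3*), which starts coagulation, went from 241 to 1369.8 CPM (5.68-fold, 5.01 to 6.46) in the young cells.

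The antioxidant group followed. Of 16 NRF2 targets that passed in epithelial cells, 11 were called higher and 0 lower, and all 16 ratios were above 1 (median log2 ratio 1.34). *Hmox1* (chr8:75093621-75100589, plus strand) went from 7.02 to 481 CPM (8 and 809 UMIs), a ratio of 68.5-fold, 34.6 to 159. In the ventilated library 1 barcode held 37.6% of its UMIs, and the log2 ratio without the top barcodes was 5.63. *Slc7a11* went from 2.63 to 156 CPM (3 and 263 UMIs), a ratio of 59.3-fold, 20.1 to 289.6. Sulfiredoxin (*Srxn1*), which repairs oxidized peroxiredoxins, went from 10.5 to 261 CPM (24.8-fold, 14.0 to 48.3). *Gclc* went from 939.9 to 5574 CPM, *Txnrd1*, whose upstream sequence is shown above, from 242 to 765 CPM, *Sqstm1* from 211 to 700.3 CPM and *Gclm* from 104 to 282 CPM. *Nqo1*, a textbook target, did not pass, at 15.8 and 23.2 CPM. The level of *Txnrd1* was called higher in all 4 compartments, at 166 and 409.9 CPM in immune, 54.5 and 180.3 CPM in endothelial and 128 and 374 CPM in mesenchymal cells. In endothelial cells 2 of 8 NRF2 targets were called higher and in mesenchymal cells 5 of 11, with 1 lower.

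Chaperones were higher in the epithelium. Of 15 heat shock proteins and co-chaperones, all of which passed, 7 were called higher and 0 lower (median log2 ratio 0.90). Of all epithelial genes 8.89% were called higher. The chaperones *Hspa8*, *Hsp90ab1* and *Hsp90aa1* went from 882 to 2311 CPM, from 1066 to 2399.8 CPM and from 1065 to 2282 CPM. *Hspa1b* and *Hspb1* were also called higher. The mitochondrial pair *Hspd1* and *Hspe1*, which share a promoter region, went from 104 to 222 CPM and from 111 to 232 CPM. No heat shock gene was called higher in the young immune, endothelial or mesenchymal cells, and 2 were called lower in the mesenchymal cells. The list medians there were 0.61, 0.21 and 0.34, beside −0.06, −0.04 and 0.02 for all genes. Ratios were above 1 for 5 of 7, 6 of 10 and 8 of 13 members, in the same order. The highest log2 ratios, 0.97, 0.99 and 0.98, lay just under the limit.

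The surfactant protein genes were not called, while 4 other genes of the surfactant and lamellar body list were called lower. *Sftpc* stood at 32524 and 32613 CPM, *Sftpb* at 2899 and 2533 CPM, *Sftpa1* at 4214 and 4179 CPM and *Sftpd* at 1019 and 1742 CPM, and none of the 4 was called. *Abca3*, the lipid transporter of the lamellar body, went from 328 to 137 CPM (2.40-fold lower, 2.03 to 2.84), and *Lpcat1*, which makes surfactant phosphatidylcholine, from 312 to 131 CPM. *Slc34a2*, the type II cell phosphate transporter, went from 950.4 to 372 CPM and the type II transcription factor *Etv5* from 135 to 38.0 CPM (3.55-fold lower, 2.64 to 4.84). These were the 4 of 12 called lower, against 6.60% of all epithelial genes, and the other 8 were not called. Type II-like barcodes were 32.7% of nonventilated and 24.7% of ventilated epithelial barcodes. Within them *Abca3* stood at 859.6 and 383 CPM, *Slc34a2* at 2923 and 1236 CPM and *Sftpc* at 100426 and 108599 CPM, with all 3 among the markers that define the class. In aged epithelium 0 of 12 were called.

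The immediate early genes of the epithelium went both ways. Of 22 that passed, 7 were called lower and 3 higher. *Egr3* went from 136 to 7.13 CPM (19.1-fold lower, 10.6 to 37.7), *Nr4a3* from 105 to 14.9 CPM, *Klf2* from 246 to 42.8 CPM, *Btg2* from 1016 to 328 CPM and *Ier2* from 554 to 206 CPM, whereas *Fosl1*, an AP-1 subunit of migrating epithelium, went from 20.2 to 151 CPM (7.50-fold, 4.89 to 12.1). In type I-like barcodes 15 of 22 had a ratio of at least 2 and 0 a ratio of at most 1/2 (median log2 ratio 1.27), and in type II-like barcodes 3 of 21 had a ratio of at least 2 and 7 a ratio of at most 1/2 (−0.54). Both classes are small, these ratios are not calls, and the share of all genes at such ratios in each class is not given. The largest fall of the compartment was *Ppargc1a* (PGC-1 alpha, chr5:51454250-51567726, minus strand), the coactivator of mitochondrial biogenesis, from 462 to 10.1 CPM (526 and 17 UMIs, 45.7-fold lower, 28.3 to 79.1). In aged epithelium it stood at 810.0 and 17.2 CPM. The other large falls, *Igfbp5* (131 and 5.94 CPM), *Kcnip4* (198 and 11.9 CPM) and *Rp1* (211 and 27.3 CPM), read higher after ventilation when only barcodes with up to 5000 genes were kept, with log2 ratios of 1.21, 1.46 and 2.79. *Egr3* read 0.62, *Klf2* 0.12 and *Zfp36* 0.03 in the same setting. These 6 values therefore rest on large barcodes, and *Egr3*, *Nr4a3* and *Igfbp5* were not called without the top barcode of each library.

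Each compartment contributed its own secreted factors. Of the *Il1b* UMIs in the 4 compartments, 99.5% and 99.6% lay in immune cells, and of *Cxcl2* 99.3% and 96.7%. *Il6* lay in mesenchymal cells for 75.2% of 1236 UMIs without and 85.9% of 3323 UMIs with ventilation. *Cxcl1* did so for 80.1% and 84.5%, and *Lif* for 69.7% and 91.7%. *Ccl2* shifted from 7.28% to 46.0% mesenchymal and from 92.2% to 53.2% immune, and *Ccl7* from 6.77% to 53.3% mesenchymal. *Cxcl10* UMIs were 28.6% endothelial without and 61.1% endothelial with ventilation, and 51.6% and 16.0% mesenchymal. The sources of these monocyte and T cell chemoattractants were thus divided differently in the 2 libraries. *Il11*, a fibroblast cytokine of the IL-6 family, had 37 and 786 mesenchymal UMIs, and *Csf3* (G-CSF), the neutrophil growth factor, had 4 UMIs in all 4 compartments without and 289 with ventilation, 173 of them mesenchymal. *Hbegf* lay in endothelium for 46.8% and 58.4% of its UMIs, and *Areg* in epithelium for 58.0% in both libraries. After thinning to 2000 UMIs, *Il6* was found in 9.89% and 25.5% of mesenchymal and in 0.337% and 1.43% of endothelial barcodes, and *Cxcl10* in 2.81% and 36.1% of endothelial barcodes, beside 4.55% of ventilated epithelial ones. Before thinning, these shares were 20.2% and 46.6% for *Il6* in mesenchymal and 5.56% and 53.9% for *Cxcl10* in endothelial barcodes. Thinning left out 32 and 13 mesenchymal barcodes. These shares depend on how many barcodes of each compartment were captured, and the lungs were digested and frozen before capture.

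**Figure D4:**
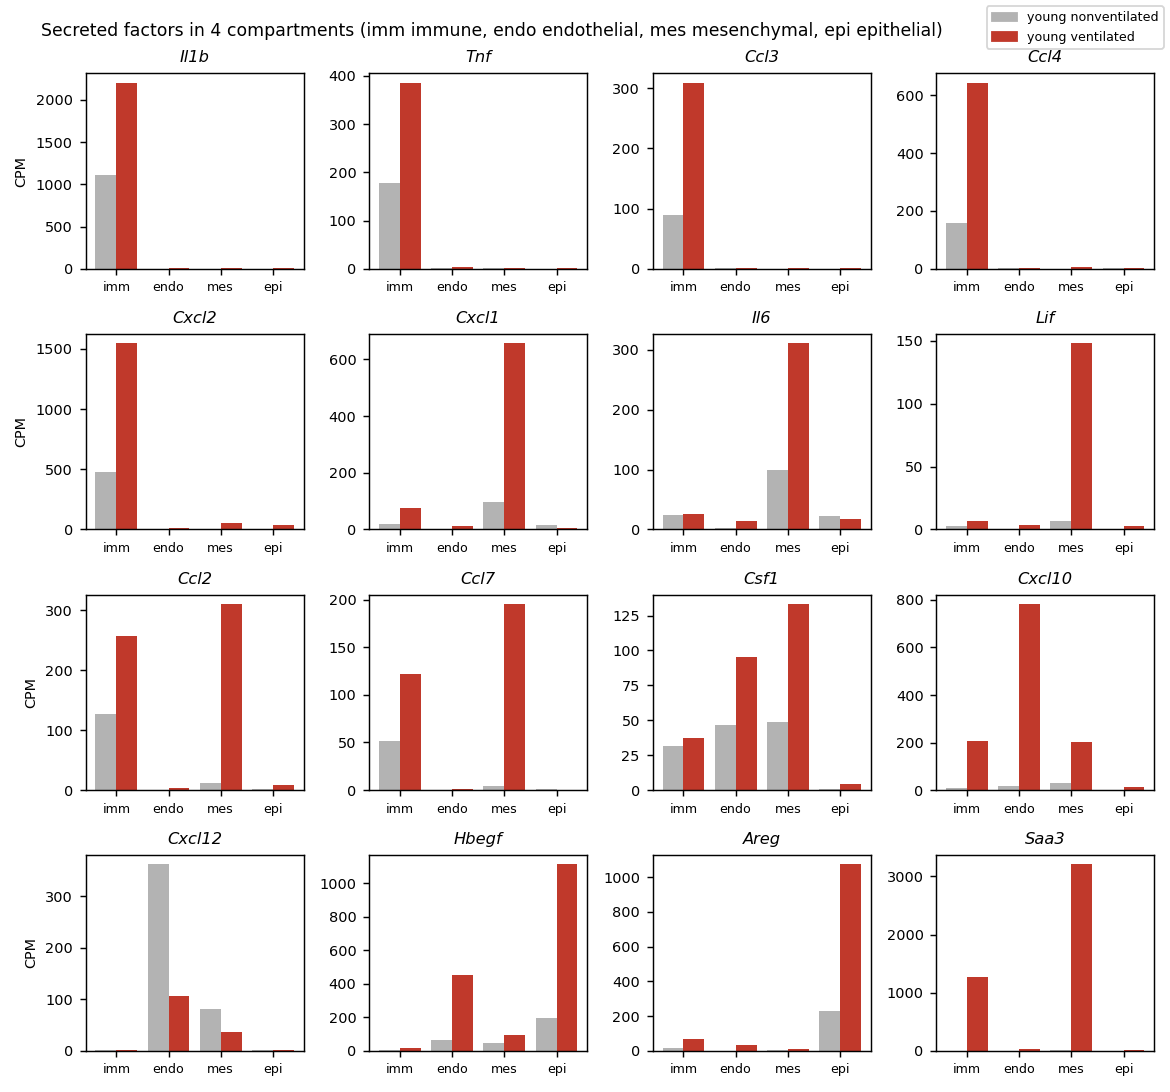
CPM of 16 secreted factors in the 4 compartments of the young lungs, as bars for the nonventilated and ventilated library on axes that start at 0. *Il1b* and *Cxcl2* are immune, *Il6*, *Cxcl1* and *Lif* mesenchymal, and *Cxcl10* reached its highest ventilated level, 783 CPM, in endothelial cells.

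Among the 1931 genes that passed in all 4 compartments, which come from the same 2 libraries, those whose lowest ratio was highest included *Gclc* (2.04, 2.20, 2.03, 2.57), *Thbs1* (1.56, 1.82, 2.21, 1.72), *Hif1a*, the oxygen-regulated transcription factor (1.15, 2.22, 1.86, 1.56), the nucleolar factor *Gnl3* (1.35, 1.43, 1.75, 1.84), *Txnrd1* (1.31, 1.72, 1.55, 1.66) and *Bcl3*, given as log2 ratios in immune, endothelial, mesenchymal and epithelial cells in that order. *Cycs* (cytochrome c) and *Rcan1*, the calcineurin inhibitor, stood at 0.98, 0.90, 1.13, 1.05 and 0.99, 1.36, 1.06, 1.36. Among genes lower throughout were *Nfia* (−1.66, −1.79, −0.92, −1.71), *Ccnd3*, cyclin D3 (−2.01, −1.28, −0.86, −1.73), *Tnrc6b*, of the microRNA silencing complex (−1.21, −1.58, −1.43, −1.76), *Smyd3* (−1.02, −1.70, −0.82, −1.81) and *Smarca2*, a chromatin remodeling ATPase (−1.47, −0.87, −1.42, −1.23). *Hif1a* was higher at the level of RNA. HIF target genes were called higher in 1 of 7 cases in immune and 2 of 5 in endothelial cells. In mesenchymal cells 3 of 8 were, and in epithelial cells 2 of 7, with 0 called lower in each compartment. Of all genes 5.01%, 9.29%, 9.49% and 8.89% were called higher, in the same order. The median log2 ratios of the HIF targets that passed were 0.80, 0.35, 0.60 and 0.72. With the immune classes weighted to a fixed mix, *Thbs1* (0.90), *Hif1a* (0.98) and *Smyd3* (−0.87) were no longer called in immune cells. *Slc2a1*, the glucose transporter, was the immune one (34.8 and 88.4 CPM), and *Pfkfb3* (112 and 569 CPM) and *Ndrg1* (87.8 and 275 CPM) were the endothelial ones.

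**Figure D5:**
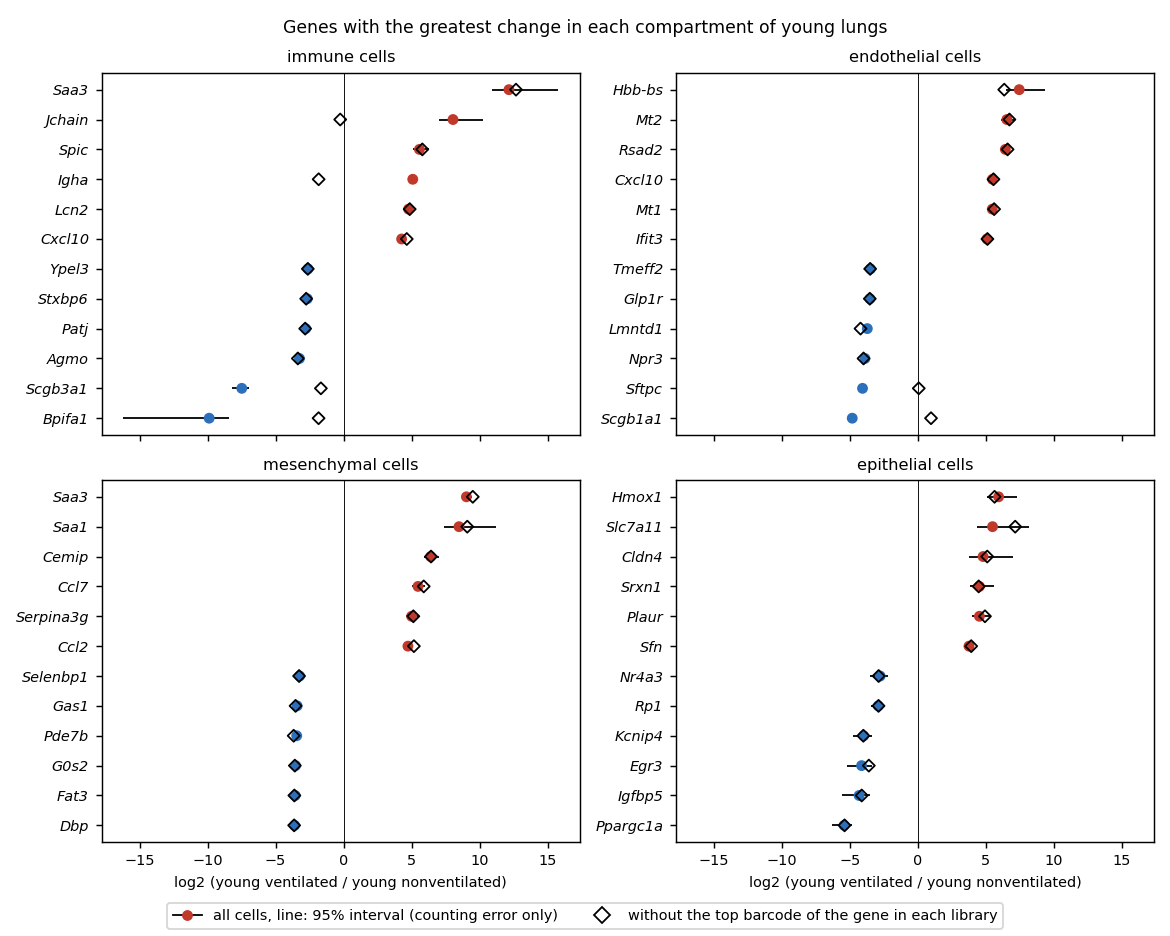
Log2 ratios (horizontal) of the 6 largest rises and 6 largest falls in each compartment, with bars for the exact 95% counting interval and diamonds for the value without the barcode richest in that gene in each library. *Jchain*, *Igha*, *Scgb3a1*, *Bpifa1*, *Scgb1a1* and *Sftpc* are genes whose diamond lies far from the point.

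The remaining lists moved in part. Glucocorticoid-responsive genes were called higher for 5 of 12 in endothelial cells, including *Fkbp5* (75.7 and 173 CPM), the metallothioneins and *Errfi1* (85.2 and 202 CPM), while *Tsc22d3* (GILZ), also on the list, was called lower (126 and 54.8 CPM). In immune cells 2 of 11 were called higher and 3 lower, *Zbtb16* among the latter (115 and 30.8 CPM). YAP/TAZ targets, known to respond to stretch, were called higher for 3 of 8 in endothelial cells, against 9.29% of all genes there. They were *Ccn1* (95.9 and 263 CPM), *Ccn2* (23.6 and 79.2 CPM, not called without the top barcodes) and *Tead1* (91.5 and 230.5 CPM). In epithelial cells 2 of 10 were called higher, *F3* and *Ankrd1*, against 8.89% of all genes. None was called higher among 10 in mesenchymal and 2 in immune cells. Ratios were above 1 for 4 of 8 endothelial, 8 of 10 epithelial, 3 of 10 mesenchymal and 0 of 2 immune members. The median log2 ratios were 0.39, 0.41, −0.54 and −0.59, in the same order. Integrated stress response genes were called higher in at most 2 of 6 cases, in epithelial cells (*Nupr1* and *Atf4*), against 8.89% of all genes. All 6 ratios there were above 1, with a median log2 ratio of 0.56. In immune and in mesenchymal cells 1 member each was called lower. Of the p53 targets at most 2 of 8 were called higher, in mesenchymal cells (*Cdkn1a* and *Fas*), where 1 was called lower. The share of all mesenchymal genes called higher was 9.49%. Most members of these lists stayed below the limits for a call.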

How the data were processed

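Per the labels and the study's methods, the authors prepared 10x Genomics 3′ libraries and aligned and counted the reads with Cell Ranger (version 7.0.0 in the submitters' processing notes) on mm10. The deposited matrices hold raw UMI counts per gene and cell barcode, without normalization, and the values of both young and both aged libraries were used as deposited. No per-sample column was left unused (0).

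Counts were handled with Python 3.11.15, numpy 2.4.6, scipy 1.17.1 and pandas 2.3.3, and plots with matplotlib 3.10.9. Barcodes with 200 to 7500 genes and at most 10% mitochondrial UMIs were assigned to compartments, UMIs were summed per compartment and library, and sums were divided by the compartment total to give CPM. Log2 ratios were computed on CPM with 1 UMI added. Intervals of a ratio are exact conditional binomial intervals at 95%, those of a share Clopper-Pearson intervals and those of a difference of shares normal approximations. All of them cover counting error only and treat UMIs or barcodes as independent. A fold against 0 UMIs would use a floor of 3 UMIs. No doublet caller was run. The upper limit on genes applied, and barcodes with at least 2 of *Ptprc*, *Cdh5* and *Col1a2* were left out.

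The gene groups and the 20 gene lists (347 entries, 341 distinct genes, 2 of them, *Mx1* and *Ero1a*, not found by symbol) were chosen with earlier results of these data known, as were the compartments. Named genes are the members of the lists, the 6 called genes with the largest rises and the 6 with the largest falls in each compartment, and the 8 genes with the highest minimum and the 8 with the lowest maximum log2 ratio over the 4 compartments, leaving out the defining genes and predicted gene models. Only part of them is printed. Gene positions are from GENCODE vM21 on GRCm38, which placed 32158 of 32285 identifiers (99.6%), and promoter sequences are from RefSeq on GRCm38.p6. GAAANNGAAA was searched after the data had been seen. The alternatives were 9 fixed settings and, chosen after seeing the data, leaving out the barcode richest in a gene in each library. Some genes of the lists are not reported here.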

Additional observations from a re-analysis of the deposited data

Results flagged for a closer look

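A few values differed in sign between the young and the aged lungs, in a comparison with 1 library in each of the 4 groups, so the differences were not tested. *Cxcl10* in mesenchymal cells had a log2 ratio of ventilated over nonventilated CPM of 2.66 in young and −1.67 in aged lungs. *Igha* in immune cells had 5.08 and −4.85, and *Scgb1a1* in endothelial cells −4.83 and 3.21. The young values of these last 2 genes come from single barcodes, as given above for both.

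Barcodes outside the comparison also carried a difference. In the young ventilated library 25.4% of barcodes were over the mitochondrial limit, against 17.9% in the nonventilated one, and 13.1% of the kept barcodes held none of the 4 defining genes, against 7.85%. The barcodes without a defining gene also held more hemoglobin and other erythroid RNA, at a summed 3970.2 CPM against 11.8 CPM. Their part in the results was not tested.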

How the results depend on the processing

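No paired analysis was possible because each group is 1 pooled library with no replicate numbers. Leaving out a replicate was not possible for the same reason. The filter on low values set the counts of called genes. With the limit on the mean lowered from 50 to 10 CPM, 389 genes were called higher and 491 lower in immune, 574 and 1198 in endothelial, 650 and 1233 in mesenchymal and 836 and 855 in epithelial cells. With no filter on CPM the counts were 879 and 1264, 1036 and 2646, 932 and 2927, and 906 and 861, in the same order. With barcodes thinned to 2000 UMIs 136 genes were called lower in epithelial cells. The median absolute log2 ratio in immune cells was 0.34 with up to 5000 genes per barcode, with thinning and at 10 CPM, 0.30 with a fixed mix of classes and 0.40 with no filter. It was 0.46 at 10 CPM and 0.59 with no filter in endothelial cells, and 0.48 and 0.60 in mesenchymal cells. In epithelial cells it was 0.43 with up to 5000 genes, 0.45 with a 5% mitochondrial limit, 0.44 with 2 UMIs of the defining gene, 0.52 after thinning, 0.45 at 10 CPM and 0.46 with no filter.

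Some named genes turned direction. Without the barcode richest in the gene in each library, log2 ratios were −0.25 for *Jchain* and −1.84 for *Igha* in immune cells, 0.96 for *Scgb1a1* and 0.059 for *Sftpc* in endothelial cells and 0.25 for *Sftpc* in mesenchymal cells. With up to 5000 genes per barcode they were 0.96 for *Scgb1a1* and 0.10 for *Sftpc* in endothelial cells, 0.22 for *Sftpc* in mesenchymal cells, and 1.21 for *Igfbp5*, 0.62 for *Egr3*, 1.46 for *Kcnip4*, 2.79 for *Rp1*, 0.033 for *Zfp36* and 0.12 for *Klf2* in epithelial cells. With a 5% mitochondrial limit *Scgb3a1* in immune cells read 1.38, and *Scgb1a1* and *Sftpc* in endothelial cells read 0.95 and 0.38. With at least 2 UMIs of the defining gene the last 2 read 0.94 and 0.15. Where a single barcode did not account for it, the cause was not tested. Of 321 values of named genes, 273 kept their direction and call after thinning and 314 with the median ratio set to 1. The other settings that left the CPM filter alone lay between these. All 321 kept them under both changes of the CPM filter. Those changes leave the ratio and interval of a gene as they were, so they could not alter a call already made.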
